A study of Mus musculus with 22 samples.

Results

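The nuclei described here are the hypothalamic neuron nuclei annotated as n16.Rgs16/Vip. They were taken from single-nucleus RNA-sequencing (snRNA-seq) of leptin-deficient obese (ob/ob) mice as all nuclei whose deposited annotation begins with n16. There were 609 of them among 24965 nuclei (2.44%), or 3.14% of the 19416 nuclei annotated as neurons. The mice were about 11 weeks old and were given 1 intracerebroventricular (icv) injection, either of FGF1 (fibroblast growth factor 1, 3 µg) or of vehicle, and the intake of vehicle mice was held to that of FGF1 mice. All groups carry the same genotype and therefore lack leptin, and the hypothalamus of 1 mouse made 1 library. Day 1 had 3 FGF1 and 3 vehicle mice, and Day 5 had 2 FGF1 mice (replicates 37 and 45) and 2 vehicle mice (replicates 28 and 38).

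On Day 1, FGF1 replicates 1, 2 and 3 gave 80, 60 and 24 n16 nuclei and vehicle replicates 1, 2 and 3 gave 42, 85 and 46. On Day 5, FGF1 replicates 37 and 45 gave 61 and 101, and vehicle replicates 28 and 38 gave 93 and 17. An n16 nucleus held a median of 3114 unique molecular identifiers (UMIs, counted molecules; range 1368 to 10175) and 1753 genes, against 2609 UMIs in the other 18807 neuron nuclei. Summed per mouse, the n16 nuclei held 75015 to 336108 UMIs. None of the 609 n16 barcodes was shared between mice. The library of FGF1 Day 1 replicate 1 stood apart: its n16 nuclei had a median of 2.36% ribosomal protein UMIs against 0.845% to 1.29% in the other 9 mice. The hypothalamic peptide genes Avp and Hcrt reached 1453 and 1353 CPM in its n16 nuclei (CPM, a gene's UMIs scaled to a common library total), against at most 58.8 and 119 CPM in those of the other 9 mice. Results that rest on this mouse are given with and without it.

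Vip encodes vasoactive intestinal peptide and Rgs16 a regulator that shortens G protein signalling. In the hypothalamus the 2 genes are best known together from the suprachiasmatic nucleus (SCN), the small paired nucleus above the optic chiasm that times daily rhythms. VIP neurons of its core receive retinal input and signal to other SCN neurons through the receptor VPAC2, encoded by Vipr2, whereas the peptide prokineticin 2 (Prok2) carries the output of the nucleus. Transcription in these cells runs in a loop in which CLOCK and BMAL1 (Arntl) bind E-boxes and switch on Per, Cry and Nr1d1, whose products feed back on them.

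The proximal promoters of the genes in the label and of Prok2, the gene with the highest n16 ratio among the markers, are shown. Each run holds 250 bases before to 50 bases after the start site on the gene's own strand, from RefSeq on GRCm38.p6, and capitals mark a match to the E-box CACGTG or to TGACG, the first letters of the cAMP response element, searched on both strands.
Vip, chr10:5638968-5639267, plus strand: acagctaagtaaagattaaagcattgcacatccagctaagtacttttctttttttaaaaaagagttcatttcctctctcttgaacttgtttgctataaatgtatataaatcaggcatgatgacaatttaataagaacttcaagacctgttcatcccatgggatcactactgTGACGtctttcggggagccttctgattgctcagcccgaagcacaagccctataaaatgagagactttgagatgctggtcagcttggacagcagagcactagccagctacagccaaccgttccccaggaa
Rgs16, chr1:153740103-153740402, plus strand: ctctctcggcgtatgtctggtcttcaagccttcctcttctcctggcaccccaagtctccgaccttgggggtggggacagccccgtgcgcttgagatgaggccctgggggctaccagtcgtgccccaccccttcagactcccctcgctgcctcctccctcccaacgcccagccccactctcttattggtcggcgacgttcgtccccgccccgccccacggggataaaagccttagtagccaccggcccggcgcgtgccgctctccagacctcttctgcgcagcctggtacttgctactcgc
Prok2, chr6:99726343-99726642, minus strand: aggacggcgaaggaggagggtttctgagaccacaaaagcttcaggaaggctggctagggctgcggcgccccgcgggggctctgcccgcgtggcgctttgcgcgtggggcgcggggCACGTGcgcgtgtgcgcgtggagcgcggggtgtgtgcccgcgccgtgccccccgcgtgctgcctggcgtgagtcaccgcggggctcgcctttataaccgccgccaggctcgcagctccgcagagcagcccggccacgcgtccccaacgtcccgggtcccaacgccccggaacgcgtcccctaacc

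The Vip window held TGACG with its first base at position -79 from the start site, and the Prok2 window held CACGTG at -135. The Rgs16 window held neither. Among all 32851 promoter windows of this length, CACGTG was found in 7.15% and TGACG in 20.8%. Of the SCN marker genes described next, 13 had a window. Prok2 was the one with CACGTG, and Vip, Lhx1 and Syt10 were those with TGACG. Of the 19 clock genes with a window, 5 held CACGTG: Per1, Cry1, Ciart, Bhlhe41 and Tef. AGGTCA, the core bound by ROR and REV-ERB receptors, was in 16.3% of all windows and in that of Prokr2 alone among the SCN markers. These matches describe the windows only.

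The expression of the nuclei was first set against their label. Because the annotation was transferred from expression, the levels of n16 against other neurons describe the class and carry no test. Of 14 SCN markers, 14 were higher in n16 nuclei than in the other neurons pooled, 12 by at least 2 times, and 9 were higher in n16 than in any of the other types ranked (29 types of at least 50 nuclei in all), with a median ratio of 6.34. Over all 15258 genes with at least 100 UMIs in neurons, 271 reached 2 times and the median ratio was 0.968.

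Vip was counted at 257 CPM in n16 nuclei and at 8.55 CPM in the other neurons, a ratio of 30.0, and its level per mouse ran from 101 to 486 CPM (median 219.9) against 0.383 to 16 CPM in the other neurons. Rgs16 stood at 92.1 against 4.65 CPM (ratio 19.8), and at 58.2 to 115 CPM (median 90.8) by mouse. For both genes every n16 value lay above every value of the other neurons in all 10 mice. Among the receptors and ligands, Vipr2 was 20.0 times higher (83.4 against 4.17 CPM, higher in 10 of 10 mice), Prok2 32.7 times (71.6 against 2.19 CPM, 9 of 10 mice) and Prokr2, the prokineticin 2 receptor, 7.09 times (9 of 10 mice). Nms, the peptide neuromedin S, was 24.2 times higher (9 of 10 mice), and Grp, gastrin-releasing peptide, 2.52 times (8 of 10 mice). In the mouse with the fewest UMIs, FGF1 Day 1 replicate 3, Prok2 and Nms had no UMI, where 3 counts would have been 40.0 CPM. Rgs16, Vipr2, Prok2 and Six6 overlap Gm28513, Gm20658, Gm26748 and 4930447C04Rik on the other strand, and Grp also overlaps a gene there, as do Kcnq3, Ntng1 and Pcdh15 below. The use of strand in counting was not given in the sources used here, so reads of such pairs may not be told apart.

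Of the transcription factors of SCN development and rhythm, Rorb was the most abundant against its level elsewhere, at 1426 against 213 CPM (ratio 6.68), with 1023 to 1773 CPM by mouse against 152 to 285. Six6 was 5.07 times, Lhx1 3.27 times and Six3 3.26 times higher, and Zfhx3 and Rora 1.60 and 1.45 times. Syt10, a synaptotagmin of SCN neurons, was 6.00 times higher. The rank of n16 was first among the 29 types for Vip, Rgs16, Vipr2, Prok2, Prokr2, Nms, Rorb, Six6 and Grp. It was second for Syt10, where ependymal nuclei were higher, and second for Lhx1 and Zfhx3. For Six3 the rank was 3, at 29.6 CPM against 60.6 CPM in tanycytes. For Rora it was 7, at 982 CPM against 1696 CPM in ependymal nuclei.

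**Figure D1:**
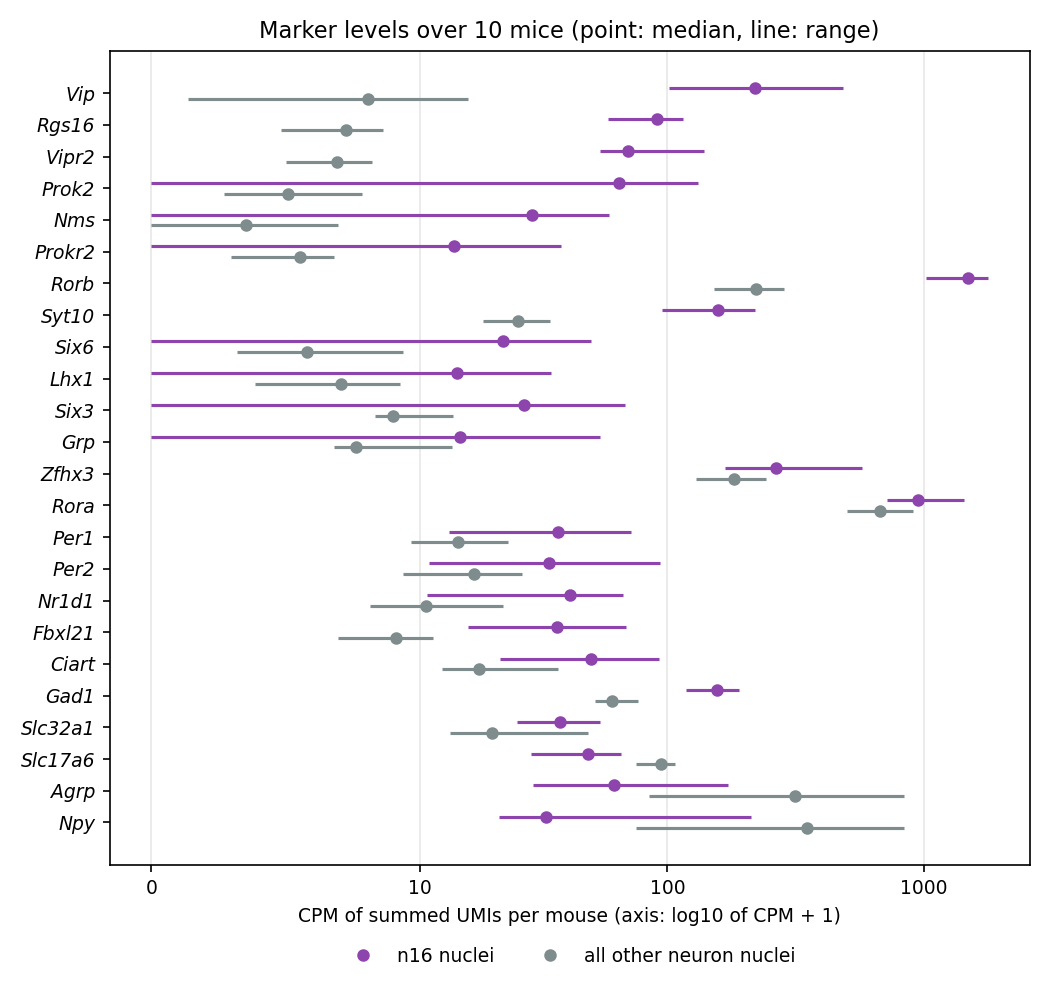
Level of SCN markers, clock genes and transmitter genes in n16 nuclei and in all other neuron nuclei, as CPM of summed UMIs per mouse on a log10 axis of CPM + 1, with the median (point) and range (line) over 10 mice. The lines of Vip, Rgs16, Vipr2, Rorb, Syt10 and Gad1 in n16 nuclei lie wholly above those of the other neurons, and that of Slc17a6 lies wholly below.

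The core clock genes were moderately higher in n16 nuclei than in the other neurons pooled. Of 23, 22 had a ratio above 1, 8 reached 2 times, and the median ratio was 1.59. Per1 (2.87 times), Per2 (2.31), Nr1d1 (3.48) and Hlf (3.40), of the negative or output arms, were above the list's median. So was Fbxl21 (4.77), which acts on the stability of cryptochromes. Of the same negative and output arms, Nr1d2, Nfil3, Cry2 and Tef were below that median, and Cry2 was higher in n16 nuclei in 4 of 10 mice. Clock and Arntl, the positive arm, were at 1.17 and 1.33 times, and Npas2, the alternative partner of BMAL1, at 0.974. The ratios of Nr1d2, Nfil3 and Cry2 were below that of Arntl, so the ratios did not separate the arms. Ciart, a repressor of CLOCK and BMAL1, was 2.36 times higher, and for Ciart, Fbxl21 and Rorb no other type was higher. Those were the only 3 of the 23 for which n16 ranked first among the 29 types. Per1, Per2 and Nr1d1 were higher in ependymal nuclei, at 103, 69.7 and 99.8 CPM against 43.8, 36.5 and 37.4 CPM in n16 nuclei.

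The transmitter genes of GABA neurons were higher in n16 nuclei than in the other neurons pooled. Gad1, the main GABA-synthesizing enzyme, was 2.57 times higher than in other neurons (10 of 10 mice), Slc32a1, which loads GABA into vesicles, 1.47 times (10 of 10), and Gad2 1.24 times (7 of 10). Among the 29 types n16 ranked 4 for Gad1, 6 for Slc32a1 and 8 for Gad2. In n16 nuclei Slc32a1 was at 39.2 CPM, close to the 35.4 CPM of astrocytes. Gad1 was at 160.5 against 64.6 CPM in astrocytes, and Gad2 at 196.5 against 88.3 CPM. Slc17a6, the vesicular glutamate transporter, was 0.506 times that in other neurons and lower in 10 of 10 mice. Agrp and Npy were at 0.213 and 0.179 times their level in other neurons, and the share of n16 nuclei with an Agrp UMI (22.5%) was below that of oligodendrocytes (23.5%), which are not known to make it, and is read as background. Avp, which shell neurons of the SCN express, was at 171 CPM over all n16 nuclei, but with a median of 26.4 CPM by mouse, since 1 mouse held 1453 CPM, and 15.9% of n16 nuclei had an Avp UMI against 16.1% of astrocytes. Without that mouse, FGF1 Day 1 replicate 1, 6.19% of 97 n16 nuclei with Vip had an Avp UMI, and 9.03% of 432 without Vip. The shares in the other classes were not computed without it.

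The genes of the largest n16 ratio, among those of at least 100 CPM, were Vip, Prr5l, 9330185C12Rik, Cdc14a, Nnat, Rorb, Kcnh8, Syt10, Slc2a13, Nrg1, Pde7b, Susd1, Dlk1, Pde10a and Stk32a, from 30.0 down to 3.52 times. All 15 were higher in n16 than in the other neurons of the same mouse in 10 of 10 mice. Nnat, the imprinted gene for neuronatin, a small protein of the endoplasmic reticulum, stood at 2435 against 295 CPM (8.25 times) and was the most abundant of them after Nrg1 (7882 against 1993 CPM), the gene for the growth factor neuregulin 1. Kcnh8, a voltage-gated potassium channel, was 6.23 times higher, and the phosphodiesterases Pde7b and Pde10a, which break down cyclic nucleotides, 3.86 and 3.77 times.

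Vip and Rgs16 were not found in most of the nuclei that bear their names. A Vip UMI was present in 113 of 609 nuclei (18.6%, 95% exact binomial interval 15.5% to 21.9%) and an Rgs16 UMI in 164 (26.9%, 23.4% to 30.6%), with either in 235 (38.6%) and both in 42. The same shares in astrocytes, which should lack Vip, were 2.73% for Vip and 2.28% for Rgs16, with median depths of 2694 UMIs in astrocytes and 3114 in n16 nuclei. With each nucleus thinned to 1300 UMIs they were 14.8% and 13.6% in n16 nuclei against 1.495% and 0.845% in astrocytes. Rorb was found in 90.3%, Nnat in 86.0%, Gad1 in 41.1%, Syt10 in 37.8%, Vipr2 in 24.3%, Prok2 in 15.4% and Nms in 11.0%. In oligodendrocytes, of a median depth of 3115 UMIs, the same genes were found in 37.5%, 43.2%, 17.6%, 8.58%, 0.873%, 1.02% and 0.727%. In astrocytes they were found in 69.8%, 80.7%, 16.1%, 5.27%, 0.78%, 0.78% and 0.91%. Each share was higher in n16 nuclei than in either class, but Rorb and Nnat were also found in most astrocytes. At least 1 of Vip, Rgs16, Vipr2, Prok2, Nms, Syt10, Six6, Lhx1, Prokr2 and Grp had a UMI in 497 nuclei, and at least 3 of the 10 in 126. The intervals cover counting error only, and a nucleus without a UMI may still transcribe the gene. Vip itself was concentrated: 45 nuclei with at least 5 Vip UMIs held 408 of the 563 Vip UMIs (72.5%), and the highest had 19.

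The Vip-bearing nuclei differed from the rest of the n16 nuclei in other genes. Compared with the 496 nuclei without a Vip UMI, the 113 with one had less Rorb (645 against 1604 CPM), with median depths of 3092 and 3138 UMIs. By mouse, Rorb was at 466 to 843 CPM in nuclei with Vip and at 1149 to 2161 CPM in nuclei without, so the ranges did not overlap, and it was lower with Vip in 10 of 10 mice. Nnat was at 1513 against 2645 CPM and lower with Vip in 9 of 10 mice. Vipr2 was found in 13.3% of nuclei with Vip and in 26.8% of those without, and its level was lower with Vip in 8 of 10 mice. Conversely, Syt10 was found in 53.1% against 34.3% (level higher with Vip in 9 of 10 mice), Lhx1 in 13.3% against 3.83% (9 of 10 mice), Grp in 11.5% against 2.62% and Rgs16 in 37.2% against 24.6% (6 of 10 mice). A mouse gave 4 to 27 nuclei with Vip, and Grp was higher with Vip in 4 mice and lower in 4. Of the 94 nuclei with a Prok2 UMI, which came from 9 mice (4 to 19 each), Nms was found in 21.3% against 9.13% of the others, and its level was higher with Prok2 in 8 of the 9 mice. Nnat was at 3828 against 2168 CPM and also higher in 8 of 9 mice. Without FGF1 Day 1 replicate 1, Nms was found in 25.3% against 8.81%, and Nnat was at 3566 against 1974 CPM. Avp was found in 26.6% of nuclei with Prok2 against 14.0%, but in 14.7% against 7.49% without that mouse, and its level was higher with Prok2 in 5 mice and lower in 4. Vip was found in 18.1% against 18.6%, and in 13.3% against 19.2% without that mouse. These are shares and levels over nuclei of 10 mice and carry no test.

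The annotation gave each nucleus a confidence. Of 937 nuclei whose best label was n16, 609 had a confidence of at least 0.75 and were annotated as such, 301 of the others were left unmapped and 27 were placed in other types. The lowest member had 0.753 and the highest nucleus outside had 0.748, and 526 members were at 0.9 or more. The 28 members from 0.75 to 0.80 had 74.9 CPM of Vip and 37.5 CPM of Rgs16, and the 22 nuclei from 0.70 to 0.75 had 262 and 29.1 CPM. All 328 below the threshold together had 160.4 CPM of Vip, 23.4 CPM of Rgs16, 530.5 CPM of Rorb and 739 CPM of Nnat, lower for each gene than in the nuclei at 0.9 or more (277, 101, 1519 and 2629 CPM).

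To ask whether fewer neurons were n16 after FGF1, the n16 share of neuron nuclei was compared by mouse. On Day 1 it was 1.99%, 2.97% and 2.74% in FGF1 replicates 1, 2 and 3 and 4.47%, 5.00% and 5.52% in vehicle replicates 1, 2 and 3. The 3 FGF1 mice all lay below the 3 vehicle mice, with means of 2.56% ± 0.511 and 4.99% ± 0.524 (SD, n = 3 each) and a difference of -2.43 percentage points. The exact two-sided permutation test gave p = 0.1, which is the smallest that this test can give with 3 against 3 mice, so the test cannot pass 0.05 here. Of all nuclei rather than neurons, the difference was -1.75 points (exact permutation p = 0.1). On Day 5 the shares were 3.49% and 2.37% in FGF1 replicates 37 and 45 and 3.62% and 3.795% in vehicle replicates 28 and 38, a difference of -0.778 points (exact permutation p = 0.333, again the smallest this test can give). Within each of the authors' 5 batches, which paired 1 FGF1 with 1 vehicle mouse, the FGF1 mouse had the lower share. A share depends on how many other nuclei were recovered and on which nuclei met the label's threshold, and their part was not tested.

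**Figure D2:**
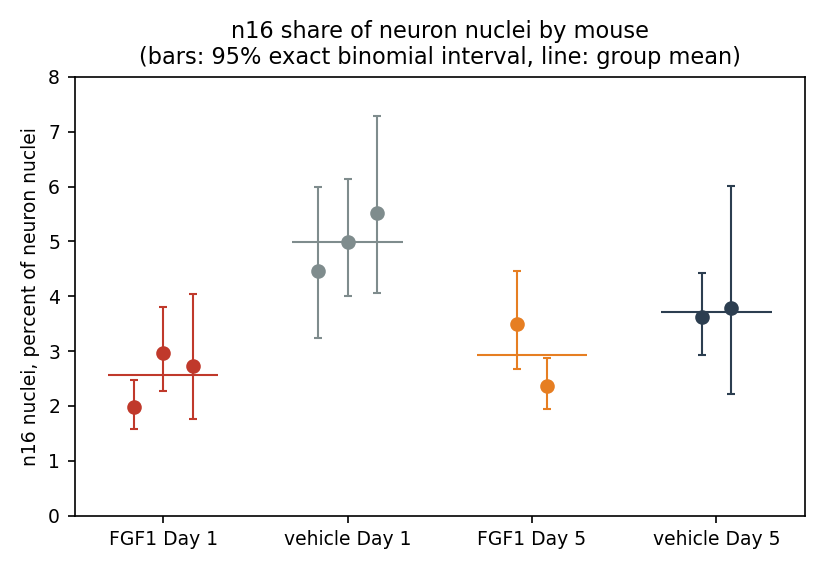
Percent of neuron nuclei annotated as n16 in each mouse (points, with 95% exact binomial intervals) and group means (lines). The 3 FGF1 mice of Day 1 lie at 1.99% to 2.97%, below the 3 vehicle mice at 4.47% to 5.52%, and the Day 5 groups lie closer together.

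The response of n16 nuclei to FGF1 was tested on counts summed per mouse with edgeR's quasi-likelihood test, where a gene was called at a Benjamini-Hochberg false discovery rate (FDR) below 0.05 over all genes tested. Levels from here on are CPM scaled by TMM, and fold changes are FGF1 over vehicle on the log2 scale with the standard error (SE). On Day 1, 0 of 4229 genes were called (0%), and 154 (3.64%) had an unadjusted p below 0.05. DESeq2 called 2 on the same counts, S100a6 and Zmym1, which were also the top genes of edgeR.

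S100a6, a small calcium-binding protein, was at 173, 104 and 104 CPM in FGF1 replicates 1, 2 and 3 and at 21.9, 14.96 and 5.28 CPM in vehicle replicates 1, 2 and 3. Every FGF1 mouse was thus above every vehicle mouse, and the difference was 3.16 ± 0.49 with an FDR of 0.135 (edgeR), over 73 UMIs with FGF1 and 10 with vehicle. Zmym1, a zinc finger protein of the MYM type, was at 277, 175 and 247 CPM against 54.9, 65.8 and 47.5 CPM (2.02 ± 0.34, edgeR FDR 0.135). The 2 genes lie at chr3:90612882-90624181 and chr4:127047094-127061152 (GRCm38), the latter over Gm12940 and Gm12944 on the other strand. All FGF1 mice lay above all vehicle mice for 3.85% of the genes tested and below for 4.73%. Without FGF1 replicate 1, S100a6 was at 2.80 (FDR 0.11) and Zmym1 at 1.79 (FDR 0.0871), and the genes called were Nnat and Snhg20, both lower with FGF1.

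The next genes by p were not called either. A330033J07Rik, a non-coding RNA annotated antisense to Id4 that also overlaps Gm36346 and Gm49291 on its own strand, was at 39.0, 83.5 and 13.01 CPM with FGF1 and 154, 224 and 264 CPM with vehicle (-2.05 ± 0.43, edgeR FDR 0.744), again without overlap. Ntng1, netrin G1, a synaptic adhesion protein, differed by 1.40 ± 0.36 and Mt2, a metallothionein that binds metals and responds to glucocorticoids, by 1.45 ± 0.41 (edgeR FDR 0.995 for both). Mt2 was at 767, 405 and 494 CPM against 252, 266 and 89.8 CPM. Gfap, the intermediate filament of astrocytes, differed by 2.57 ± 0.68 (edgeR FDR 0.995), at 56.4, 62.7 and 65.1 CPM against 0, 14.96 and 10.6 CPM.

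On Day 5, 4 of 5118 genes were called (0.0782%), all lower with FGF1, and 274 (5.35%) had an unadjusted p below 0.05. Nnat was at 522 and 485 CPM in FGF1 replicates 37 and 45 and at 3787 and 1603 CPM in vehicle replicates 28 and 38, and fell by 2.49 ± 0.29 (edgeR FDR 0.00127). It lies at chr2:157560078-157562522 and overlaps Blcap and Gm23134 on the other strand. Gm26917, a long non-coding RNA (chr17:39843013-39846341) annotated next to a ribosomal RNA pseudogene, so that its counts are uncertain, was at 18.9 and 11.2 CPM against 156 and 93.6 CPM and fell by 3.16 ± 0.50 (edgeR FDR 0.0275). Eif1, a translation initiation factor (chr11:100319885-100322096), was at 56.7 and 41.1 CPM against 346 and 129 CPM and fell by 2.48 ± 0.41 (edgeR FDR 0.0344). Cox8a, a subunit of cytochrome c oxidase (chr19:7215153-7217616), was at 41.6 and 18.7 CPM against 364 and 70.2 CPM and fell by 3.12 ± 0.55 (edgeR FDR 0.047). The groups did not overlap for any of the 4 genes. That held, in this direction, for 15.5% of all genes tested on Day 5, and in the other for 19.5%.

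Of the 4 calls, 3 were lost without vehicle replicate 28, where the remaining vehicle mouse was taken to vary like the others. In that fit edgeR gave Nnat a fold change of -1.69 (FDR 1.05e-07) and Gm26917 one of -2.61 (FDR 0.466). Eif1 moved from -2.48 to -1.41 (FDR 0.441) and Cox8a from -3.12 to -1.23 (FDR 0.755). DESeq2 called none of them (FDR 0.165 for Nnat), and with the authors' batch as a block only Nnat was called. The fold changes by DESeq2 were -2.47 for Nnat, -3.14 for Gm26917, -2.39 for Eif1 and -2.92 for Cox8a. With the batch block they were -2.37, -3.03, -2.31 and -2.85 in the same order. Vehicle replicate 28 also stood apart from the other 3 Day 5 mice in some measures. Its n16 nucleus of highest mitochondrial share had 0.532% mitochondrial UMIs, against 0.0489% to 0.178% in the highest nucleus of each of the other 3. In 2 vehicle mice of Day 1 the highest nucleus had 0.437% and 0.605%. These are single nuclei, out of 93 n16 nuclei in replicate 28 and 17 to 101 in the other Day 5 mice. As CPM of summed UMIs, the non-coding RNAs Gm42418 and Snhg20 were at 205 and 262 CPM in replicate 28, against at most 18.4 CPM of either in the other 3. Cox8a was at 1895 CPM in its astrocytes against 51.1 to 214 CPM, and Eif1 at 937 against 88.6 to 179.8 CPM. The part of these differences in the calls was not tested.

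On Day 1 the same 4 genes split the FGF1 mice. Nnat was at 4187 CPM in FGF1 replicate 1 but at 873 and 820 CPM in replicates 2 and 3, against 3499, 3958 and 2757 CPM with vehicle. Eif1 was at 520.2, 100.2 and 91.1 CPM against 198, 302 and 222 CPM, and Cox8a at 646, 37.6 and 39.0 CPM against 208, 332 and 84.5 CPM. FGF1 replicate 1, the library with the high ribosomal share, was thus the highest of all 10 mice for Nnat, Eif1 and Cox8a, while replicates 2 and 3 were below all 3 vehicle mice of Day 1. Gm26917 was at 147, 20.9 and 52.0 CPM against 176, 452 and 195 CPM, below in every FGF1 mouse (-1.84 ± 0.66, edgeR FDR 0.995).

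**Figure D3:**
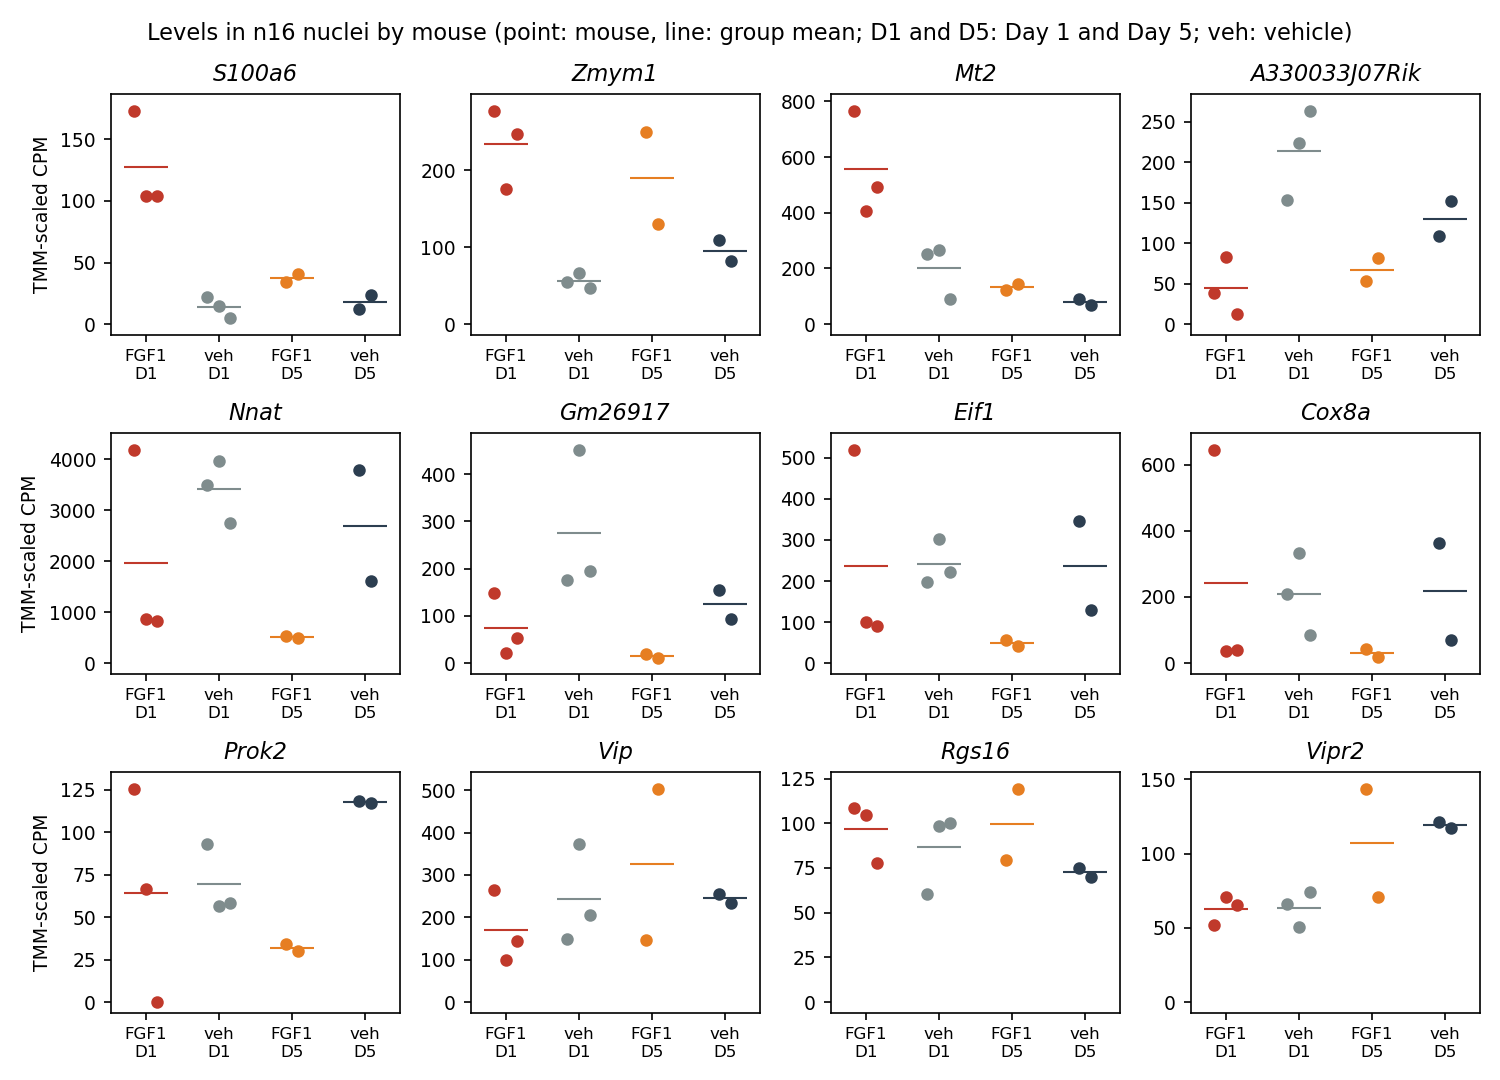
TMM-scaled CPM in n16 nuclei by mouse (points) and group means (lines) for 12 genes. S100a6, Zmym1 and Mt2 are higher in every FGF1 mouse of Day 1, Nnat, Gm26917, Eif1 and Cox8a are lower in both FGF1 mice of Day 5, and Vip and Rgs16 overlap between the groups on Day 1.

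The genes that define the class did not pass the test in either direction on either day. Of the 14 SCN markers, 8 were tested on each day and none was called. Vip was at 264, 100.2 and 143 CPM with FGF1 and 148, 374 and 206 CPM with vehicle on Day 1 (-0.51 ± 0.46, edgeR FDR 0.995), and at 148 and 504 CPM against 255 and 234 CPM on Day 5 (0.37 ± 0.40, edgeR FDR 0.978). Rgs16 was at 108, 104 and 78.1 CPM against 60.3, 98.7 and 100.3 CPM on Day 1 (0.19 ± 0.34) and at 79.4 and 119 CPM against 74.8 and 70.2 CPM on Day 5 (0.41 ± 0.39). Prok2 had the smallest FDR of the list on Day 5: 34.0 and 29.9 CPM with FGF1 against 118 and 117 CPM with vehicle, a difference of -1.90 ± 0.42 (unadjusted p = 0.000384, edgeR FDR 0.218). Its FDR ran from 0.00874 to 0.9997 over 12 alternative settings, passing only without vehicle replicate 38. On Day 1 Prok2 was at 126, 66.8 and 0 CPM against 93.2, 56.9 and 58.1 CPM. Vipr2, the VIP receptor, was at 52.0 to 71.0 CPM in the FGF1 mice and 50.9 to 73.9 CPM in the vehicle mice on Day 1.

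Of the core clock genes, 12 passed the low-count filter on Day 1 and 10 on Day 5, and none was called. Their median fold change was 0.06 on Day 1 (8 of 12 positive), against 0.02 over all genes tested, and -0.34 on Day 5 (2 of 10 positive), against 0.01. Per2 and Cry1 did not pass the filter on either day and were not tested. Per2 was at 43.4, 58.5 and 91.1 CPM with FGF1 and at 27.4, 32.9 and 47.5 CPM with vehicle on Day 1, and at 11.3 and 29.9 CPM against 34.3 and 23.4 CPM on Day 5. Cry1 was lower in every FGF1 mouse on both days, at 13, 20.9 and 26.0 CPM against 76.8, 26.9 and 89.8 CPM on Day 1 and at 18.9 and 7.46 CPM against 34.3 and 23.4 CPM on Day 5. These rest on few counts: 3 UMIs would be 13.6, 12.7 and 40.0 CPM before TMM scaling in FGF1 replicates 1, 2 and 3 of Day 1. Of all genes tested, 4.73% lay lower in every FGF1 mouse on Day 1 and 15.5% on Day 5, shares over genes that passed the filter. Over the 12 clock genes tested on Day 1, the FGF1 mice lay wholly above or below the vehicle mice for 0. Over the 10 tested on Day 5, the FGF1 mice lay below the vehicle mice for 4 and above for 1, against 15.5% and 19.5% of all genes tested.

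None of the other lists had a called member on either day, and several were barely measurable. Of 7 genes of FGF receptors, through which FGF1 signals, and of Klotho proteins, co-receptors of the endocrine FGFs, 2 were tested and not called. Fgfr1 was at 56.4, 50.1 and 91.1 CPM with FGF1 and 5.49, 38.9 and 31.7 CPM with vehicle on Day 1 (1.13 ± 0.56, edgeR FDR 0.995), while Fgfr2 was at 292 to 429 CPM against 375 to 444 CPM. Of 14 feedback genes of the MAPK pathway, 2 were tested on each day. Spry2, one that did not pass the low-count filter, was at 60.7, 29.2 and 52.0 CPM against 5.49, 8.98 and 10.6 CPM on Day 1, and it was at 243 to 340.5 CPM against 55.6 to 82.2 CPM (CPM of summed UMIs) in astrocytes of the same mice. None of 19 immediate early genes passed the filter. Synaptic adhesion genes had 24 of 26 positive fold changes on Day 5, with a median of 0.26 against 0.01 over all genes, and the FGF1 mice lay above the vehicle mice for 17 of 26, against 19.5% of all genes tested. On Day 1 the same list had 13 of 24 positive and a median of 0.02. GABA-A receptor subunits had 9 of 10 positive on Day 5 (median 0.25) and 3 of 10 on Day 1 (median -0.29). For neuropeptides 8 of 11 were negative on Day 5 (median -0.60) and 3 of 6 on Day 1.

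The FGF1 effect itself was compared between the days. Of 5917 genes, 0 differed by the interaction test (0%), with 169 (2.86%) at an unadjusted p below 0.05. Between Day 5 and Day 1 over both treatments, 0 of 5265 genes were called (0%), and 227 (4.31%) had an unadjusted p below 0.05. DESeq2 called 6 on the same counts, among them Mt2 (lower on Day 5, -1.77 ± 0.32 and FDR 0.133 by edgeR). Without FGF1 Day 1 replicate 1, edgeR called 4 genes between the days (Kcnu1, Mt2, Ntng1 and Stam2), with Mt2 at -1.54 (FDR 0.0198), and Mt2 was also called without vehicle Day 1 replicate 3 (-1.92, FDR 0.00226). The days were run in different batches, so day and batch cannot be told apart here.

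With both days in 1 fit and the day as a covariate, a comparison added after the data were seen, 1 of 5265 genes was called (0.019%), and 282 (5.36%) had an unadjusted p below 0.05. S100a6 rose by 2.58 ± 0.42 (edgeR FDR 0.0272). It was at 34.0 and 41.1 CPM against 12.5 and 23.4 CPM on Day 5, and higher in the FGF1 mouse in each of the 5 batches. So were 3.59% of all genes, while 3.3% were lower in each. Zmym1 was also higher in 5 of 5 batches (1.55 ± 0.28, edgeR FDR 0.0623), and A330033J07Rik and Gm26917 were lower in 5 of 5 (-1.56 ± 0.32, FDR 0.174, and -2.20 ± 0.51, FDR 0.586). S100a6 was not called with the batch as a block (2.48, FDR 0.13) nor without any 1 of the 3 vehicle mice of Day 1 (FDR 0.169 to 0.35), and it fell under the low-count filter without any 1 of the FGF1 mice of Day 1. Without FGF1 Day 1 replicate 1, edgeR called 6 genes over both days, 2 higher and 4 lower: Eif1, Gm26917, Nnat, Nxph1, Pcsk1n and Zmym1. In that fit Gm26917 was at -3.21 (FDR 7.63e-05), Zmym1 at 1.35 (FDR 0.0368) and A330033J07Rik at -1.36 (FDR 0.108).

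Whether these effects belonged to n16 nuclei was tested against the other 18807 neuron nuclei of the same mice, with the mouse as a block, a comparison likewise added after the data were seen. On Day 5, 0 of 11685 genes differed (0%), with 502 (4.3%) at an unadjusted p below 0.05, and 0 by DESeq2. In n16 nuclei alone 5118 genes passed the low-count filter on Day 5, so many of those tested entered through the other neurons. In the other neurons Nnat differed by -1.96 ± 0.35 on Day 5, against -2.49 ± 0.29 in n16 nuclei. The n16 effect minus the other neurons' effect was -0.38 ± 0.16 (edgeR FDR 0.9999, 95% interval -0.69 to -0.07). For Gm26917 it was 0.31 (interval -0.85 to 1.48), for Eif1 -0.21 (-0.88 to 0.46), for Cox8a 0.04 (-0.77 to 0.86) and for Prok2 -0.75 (-2.33 to 0.84). On Day 1 the difference was 0.32 for S100a6 (-0.69 to 1.32), where the other neurons were at 2.98 ± 0.52, and -0.62 for Zmym1 (-1.20 to -0.04), where they were at 2.67 ± 0.37. None of these had an FDR under 0.05, and an interval that holds 0 does not show that the effects were alike.

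Several of these genes also differed between the mice in nuclei that are not neurons, given here as CPM of summed UMIs and not tested. S100a6 was at 1277 to 1674 CPM in astrocytes of FGF1 mice and at 105 to 247 CPM in those of vehicle mice on Day 1, and in oligodendrocytes at 72.2 to 165 against 14.2 to 20.4 CPM. Cox8a in oligodendrocytes was at 654 CPM in FGF1 Day 1 replicate 1, and at 21.2 and 20.0 CPM against 351 and 49.1 CPM on Day 5. Eif1 in oligodendrocytes on Day 5 was at 63.6 and 29.2 CPM against 265 and 104 CPM, and Nnat at 116 and 108 CPM against 508 and 387 CPM. In astrocytes Nnat was closer, at 1086 and 1059 CPM against 2223 and 1203 CPM. Also in astrocytes, on Day 1 Mt2 was at 6949 to 16120 CPM with FGF1 against 2199 to 5829 CPM with vehicle. Gfap was at 1781 to 2671 against 343 to 692 CPM and A330033J07Rik at 5.86 to 36.5 against 202 to 489 CPM in them. Zmym1 in astrocytes overlapped on Day 1, at 25.1, 62.6 and 97.3 CPM against 13.7, 29.9 and 6.18 CPM. In oligodendrocytes it did not overlap, at 322, 105 and 199 CPM against 34.0, 58.3 and 28.5 CPM. Prok2, found in 14 of 1375 oligodendrocytes, was at 5.78 and 1.54 CPM there against 0 CPM in both vehicle mice on Day 5. In the other neurons Prok2 was at 0.919 and 1.14 CPM against 2.02 and 3.61 CPM on Day 5. The share of n16 levels that comes from RNA of other cells was not tested. The summed level of 6 astrocyte markers in n16 nuclei was 107 to 190 CPM in FGF1 mice and 164 to 259 CPM in vehicle mice on Day 1, with 2 to 6 of the 6 detected, and 115 to 118 against 143 to 220 CPM on Day 5. Without the nuclei that held 3 or more glial or vascular UMIs, Nnat, Gm26917, Eif1 and Cox8a were all called on Day 5, with Rabac1 besides, and none was called over both days, where S100a6 no longer passed the low-count filter.

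**Figure D4:**
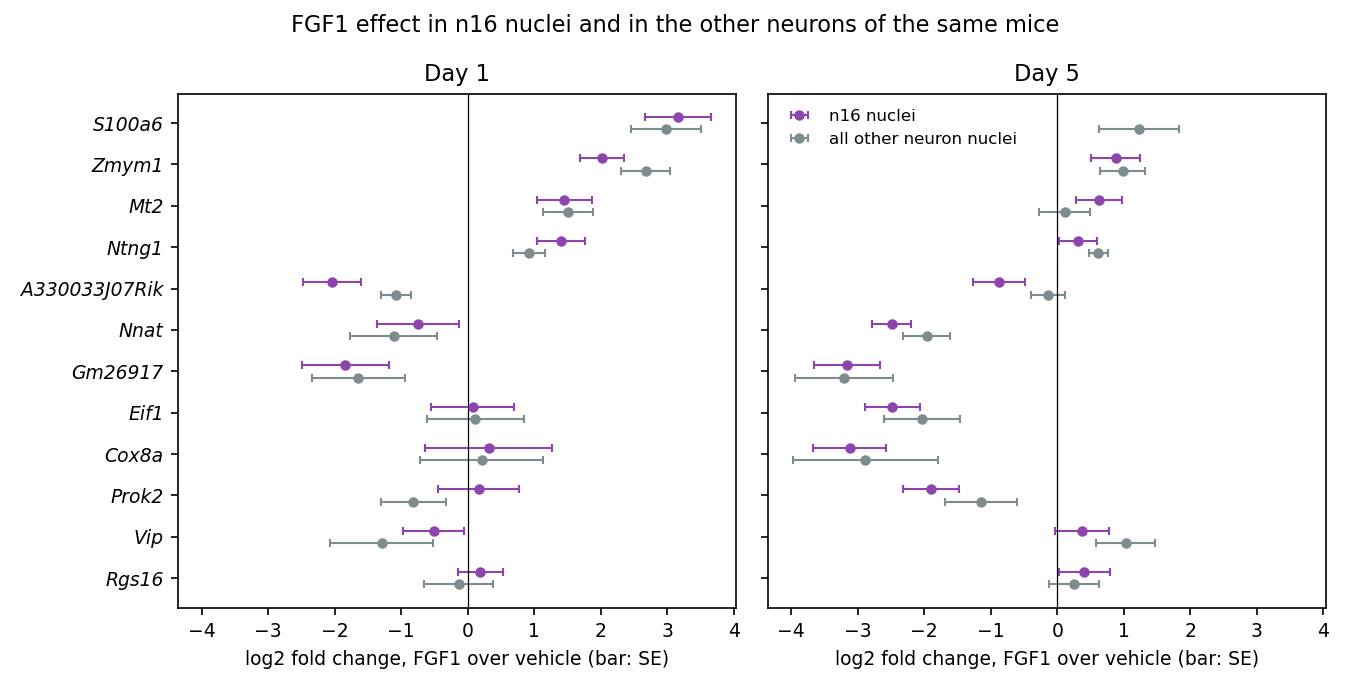
Log2 fold change of FGF1 over vehicle with its SE in n16 nuclei and in all other neuron nuclei of the same mice, for 12 genes on Day 1 (left) and Day 5 (right). For Nnat, Gm26917, Eif1 and Cox8a both kinds of nuclei lie below 0 on Day 5, and for S100a6 and Zmym1 both lie above 0 on Day 1 (S100a6 was not tested in n16 nuclei on Day 5).

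On Day 1 the n16 effect differed from that of the other neurons for 5 of 13157 genes (0.038%), with 557 (4.23%) at an unadjusted p below 0.05. In n16 nuclei alone 4229 genes passed the low-count filter on Day 1. Among the 5 genes called, Hcrt and Pomc are peptides of other neurons, Avp is a peptide that shell neurons of the SCN also express, and Cga is a pituitary hormone subunit. None of these passed the filter in n16 nuclei alone, so they entered the test through the other neurons. Their values rested on few mice: Hcrt was at 1296 CPM in FGF1 replicate 1, at 0 CPM in replicates 2 and 3 and at 0, 12.0 and 0 CPM with vehicle, and Cga at 126, 0 and 78.1 CPM against 0 CPM in all 3 vehicle mice. Without FGF1 replicate 1, Hcrt, Pomc, Avp and Prkd1 were no longer called. Prkd1, protein kinase D1, was the other gene, at 399, 581 and 455 CPM against 279.7, 203 and 581 CPM in n16 nuclei, with a difference of 0.87 ± 0.18 (edgeR FDR 0.00335). Its groups overlapped, and it was lost without FGF1 replicate 1 (FDR 0.133), FGF1 replicate 2 (0.321), vehicle replicate 1 (0.364) or vehicle replicate 2 (0.404), and by DESeq2.

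Agrp neurons, the hunger neurons of the arcuate nucleus, served as the other reference. They numbered 15 to 96 nuclei in the Day 1 mice. The n16 and Agrp nuclei of the same mice were compared, and the Day 1 effect of FGF1 differed for 49 of 5104 genes (0.96%), with 421 (8.25%) at an unadjusted p below 0.05. It was higher in n16 for 23 (0.451%) and lower for 26 (0.509%). Kcnq3, a subunit of the M-type potassium channel, was at 558, 817 and 763 CPM in the Agrp nuclei of FGF1 replicates 1, 2 and 3 and at 155, 150 and 180 CPM with vehicle (CPM of summed UMIs), with no overlap. In n16 nuclei it was at 249, 287 and 293 CPM against 259, 327 and 278 CPM. The effects were 2.16 ± 0.30 in Agrp nuclei (edgeR FDR 0.00979) and -0.08 ± 0.25 in n16 nuclei (FDR 0.995), and they differed by -2.24 ± 0.34 (FDR 2.14e-07). Kcnq5, of the same channel family, differed by -1.73 ± 0.33, Pcdh15, a protocadherin, by -1.42 ± 0.26 and Adam12, a metalloprotease, by -3.54 ± 0.74. Adam12 passed the low-count filter in Agrp nuclei alone but not in n16 nuclei alone. It was at 145 to 356 CPM against 0 to 32.7 CPM in Agrp nuclei and at 38.0 to 45.3 against 25.6 to 58.2 CPM in n16 nuclei (CPM of summed UMIs). Pcdh15 was at 1386 to 1582 CPM against 878 to 1200 CPM in n16 nuclei and at 2667 to 3154 CPM against 616 to 841 CPM in Agrp nuclei (CPM of summed UMIs), where it was called (1.95 ± 0.28, edgeR FDR 0.00979).

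The 12 genes of smallest FDR among the 23 with the higher effect in n16 had negative fold changes in Agrp nuclei, of which none was called in the Agrp nuclei alone (edgeR FDR 0.0556 to 0.387). Ntng1 was at 281, 144 and 173 CPM with FGF1 and 58.2, 73.7 and 96.3 CPM with vehicle in n16 nuclei (CPM of summed UMIs, as for the Agrp nuclei), and at 160.2, 134 and 50.9 CPM against 400, 194 and 308 CPM in Agrp nuclei. The groups did not overlap in either class and lay in opposite orders, and the effects differed by 2.58 ± 0.41 (edgeR FDR 8.58e-07). In the other neurons Ntng1 was also higher with FGF1, at 384, 324 and 375 CPM against 199, 136 and 252 CPM (CPM of summed UMIs). The n16 effect minus that of the other neurons was 0.41 (95% interval -0.12 to 0.93). Against Agrp nuclei, Trpm3, a cation channel, differed by 1.71 ± 0.34, Pcsk2, a prohormone convertase, by 1.44 ± 0.31, Tenm1, a synaptic adhesion protein, by 1.60 ± 0.37, and Grm5, a metabotropic glutamate receptor, by 1.31 ± 0.29. Among the lists, 3 of 24 synaptic adhesion genes were called (Tenm1 and Il1rapl2 higher, Pcdh15 lower) and 2 of 23 voltage-gated channel genes (Kcnq3 and Kcnq5, lower), against 0.96% of all genes tested. Of 14 neuropeptides Gal was called, lower in n16. So was Grin2a, lower, of 15 ionotropic glutamate receptor subunits, and Pcsk2, higher, of 11 genes of prohormone processing and granins. The other lists had no called member. DESeq2 called 2 of the 49 genes, Kcnq3 and Lcorl. Without FGF1 replicate 1, 2 or 3 there were 32, 27 and 30 calls, of which 26, 23 and 29 were among the 49. Without vehicle replicate 1, 12 genes were called, of which 11 were among the 49, and without vehicle replicate 2 there were 16, all among them. Kcnq3, Ntng1, Pcdh15, Lcorl, Kcnip4, Ppfia2, Syndig1 and Wbscr17 were called whichever mouse was left out.

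**Figure D5:**
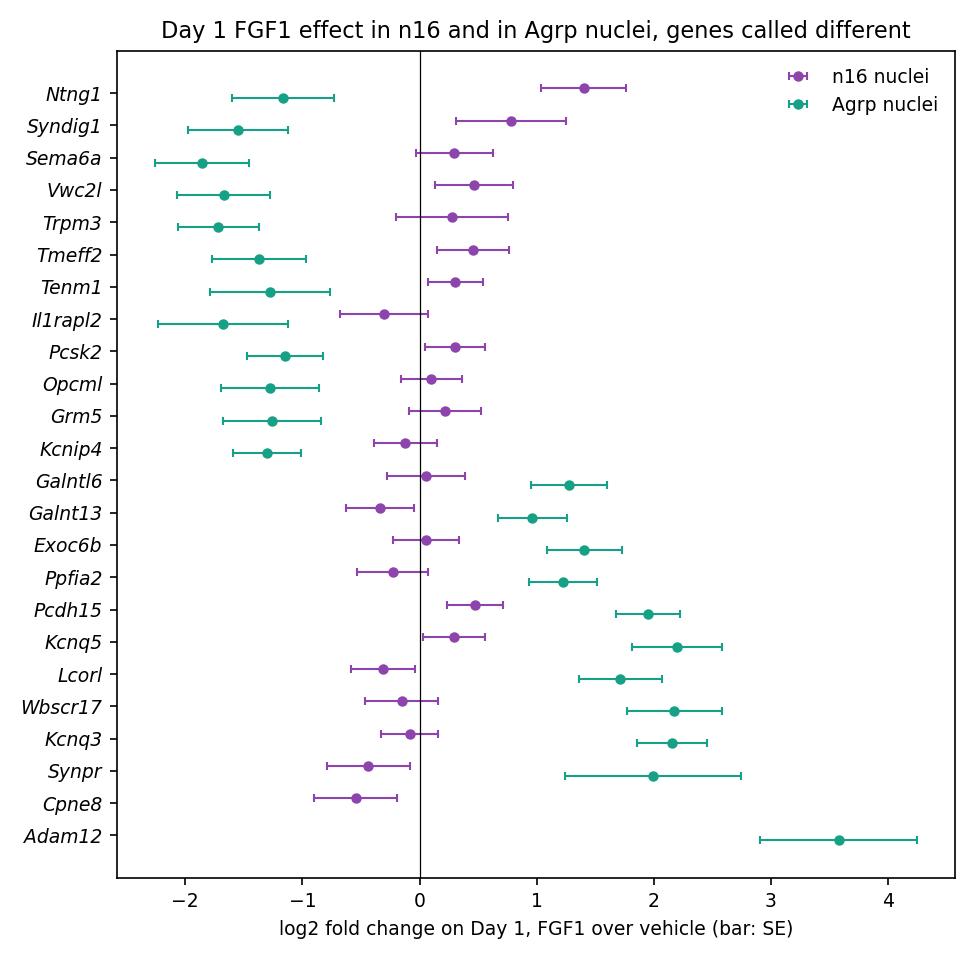
Log2 fold change of FGF1 over vehicle on Day 1 with its SE in n16 nuclei and in Agrp nuclei, for the 12 genes of smallest FDR in each direction among the 49 whose effect differed. A gene lacks a point where that class had too few UMIs for its own fit, as for Adam12 in n16 nuclei and Cpne8 in Agrp nuclei, and most n16 points lie near 0 while those of Agrp nuclei lie on either side.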

How the data were processed

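Nuclei were grouped by the deposited labels. The authors aligned the libraries to GRCm38 (mm10) with Cell Ranger 1.2 and analysed them in Seurat, per the submitters' processing notes, counted introns, and deposited whole-number UMI counts per gene and nucleus. They transferred neuron names from published types where the label confidence was at least 0.75 and ran no doublet caller on nuclei, nor was one run here. The deposited label confidence (a fraction from 0 to 1, computed by the authors in that transfer) and batch of each nucleus were used as given.

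Counts of n16 nuclei were summed per mouse (at least 10 nuclei each). Low-count genes were removed with filterByExpr. TMM factors scaled the libraries, and groups were compared with the quasi-likelihood F test of edgeR 4.0.16, with robust dispersions, at an FDR below 0.05. The SE is the fold change over the square root of F. DESeq2 1.42.0, RLE scaling, no filter, thinned libraries, blocks, label confidence and each mouse left out were alternatives. On data simulated for the Day 1 comparison (4229 genes), edgeR called 76 of 100 genes changed by 2 on the log2 scale and 81 of 100 changed by 3. There every gene had the same dispersion and no library stood apart, so recovery on the measured counts may be lower.

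The members and gene lists were chosen with earlier results of these data known. Genes named were the list members called or most abundant, up to 12 called genes per comparison and direction (10 of smallest p where under 5 were called), the 15 of largest n16 ratio, and those whose call an alternative changed. Spry2 and the Vip- and Prok2-based pairs were chosen after their values were seen. The values of Per2 and Cry1 with FGF1 also fall outside that rule. Same-numbered Day 1 mice did not deviate together (correlations -0.16, -0.18 and 0.18), so replicate numbers were not taken as pairs.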

Additional observations from a re-analysis of the deposited data

Results flagged for a closer look

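Dixon's criterion for a single outlying mouse was applied to groups of at least 4 mice, and no group was that large. What follows are effects that differed between classes of nuclei. The Day 1 effect of FGF1 in n16 nuclei differed from that in Agrp nuclei of the same mice for 49 genes (edgeR, FDR below 0.05), where values are the n16 effect minus the Agrp effect on the log2 scale. It was lower in n16 for Kcnq3 (-2.24) and Kcnq5 (-1.73), M-type potassium channel subunits, Synpr (-2.46), a synaptic vesicle protein, Ppfia2 (-1.41), an active zone protein, Pcdh15 (-1.42), Wbscr17 (-2.15), Galntl6 (-1.10), Galnt13 (-1.23), Lcorl (-2.10), Adam12 (-3.54), Cpne8 (-2.65) and Exoc6b (-1.33), a subunit of the exocyst. It was higher for Kcnip4 (1.21), which binds A-type potassium channels, Trpm3 (1.71), Grm5 (1.31), Syndig1 (2.34), Ntng1 (2.58), Opcml (1.43), Sema6a (2.12), Tenm1 (1.60), Il1rapl2 (1.59), Tmeff2 (1.67), Vwc2l (2.03) and Pcsk2 (1.44). These were named by FDR and were not tested as groups. Adam12 did not pass the low-count filter in n16 nuclei alone, nor did Cpne8 in Agrp nuclei alone.

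The Day 1 effect in n16 nuclei differed from that in all other neurons for 5 genes: Hcrt (5.58), Cga (11.5), Prkd1 (0.875), Pomc (2.34) and Avp (1.36). Of these only Prkd1 passed the low-count filter in n16 nuclei alone. Cga had no UMI in n16 nuclei of the vehicle mice, so its fitted value depends on the prior count and is no fold. Without FGF1 Day 1 replicate 1, the mouse with 1453 CPM of Avp and 1353 CPM of Hcrt in its n16 nuclei (CPM of summed UMIs, before TMM scaling), Hcrt, Prkd1, Pomc and Avp were not called, and the FGF1 effect on Gal was.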

How the results depend on the processing

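The n16 share of neurons kept its direction in each alternative, between -2.69 and -2.14 points on Day 1 and between -1.34 and -0.221 on Day 5 with 1 mouse left out. Counts of called genes moved by more than 1.5 times in 44 comparisons with an alternative, and these counts or the shares stayed within it in 69. Without the low-count filter there were 10 calls on Day 1, 19 on Day 5, 1 (Ccdc107) for the difference between days in the FGF1 effect, 38 between the days, 12 over both days and 23 against Agrp nuclei. DESeq2 gave 2 calls on Day 1, 0 on Day 5, 6 between the days, 4 over both days (A330033J07Rik, Gm26917, S100a6 and Zmym1), 2 against Agrp nuclei and 1 (Cga) against the other neurons on Day 1. With libraries thinned to the smallest, 0 of 1872 genes were called on Day 5 and 2 over both days. Over both days there were 0 calls without nuclei of 3 or more glial or vascular UMIs and 2 at a label confidence of at least 90%. With the authors' batch as a block, 1 gene (Nnat) was called on Day 5 and 0 over both days. With 1 mouse left out, 0 to 2 genes were called on Day 1, 13 to 43 on Day 5, 0 to 4 between the days, 0 to 6 over both days, 12 to 43 against Agrp nuclei, 2 to 6 against the other neurons on Day 1 and 0 to 4 on Day 5. On Day 5 and wherever 1 mouse remained in a group, that mouse was taken to vary like the others. Hcrt turned to -3.07 against the other neurons without FGF1 Day 1 replicate 1 and ran up to 10.9 with another mouse left out. Except where fewer genes were tested, the cause of these shifts was not tested. With the Day 1 replicate block, 0 of 4973 genes were called, as without it. The Day 5 groups share no replicate numbers, so there the batch was the one pairing fitted. A minimum of 5 nuclei added no mouse, and no n16 nucleus exceeded 5% mitochondrial or ribosomal UMIs, so those alternatives gave nothing new. With 24 and 17 n16 nuclei in the smallest mice, genes of low level were not tested in n16 nuclei.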
